A study of Homo sapiens with 6 samples.

Results

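Potassium channel genes, taken as the genes whose symbol in the array platform's table starts with KCN, were compared between MDA-MB-231 cells treated with DCC-2036 and control cells. There were 86 such genes among 17185 named genes, and 104 of the 45033 transcript records on the array belonged to them. Each gene was represented by its record with the highest mean intensity over the 6 arrays. The genes were thus chosen by symbol and their records by mean intensity, while KCNE2 was chosen by its log2 change, the largest rise of the whole series, so that change is described here without a test. MDA-MB-231 is a human cell line of triple-negative breast cancer, and DCC-2036 (rebastinib) is a small-molecule kinase inhibitor. The DCC-2036 group held 3 cultures given 3.75 μM of the drug for 48 h, and the control group held 3 cultures with 0 μM over the same 48 h. What the control cultures received in place of the drug is not given in the sources used here. Total RNA of each culture was labelled with Cy3 and hybridized to its own NimbleGen expression array. The experiments were described as independent, and all come from 1 cell line.

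Potassium channels let potassium leave or enter the cell and thereby set its membrane voltage, volume and calcium entry. The pore is built by alpha subunits of the voltage-gated (KCNA to KCND, KCNH, KCNQ), calcium- or sodium-activated (KCNMA, KCNN, KCNT), inward-rectifier (KCNJ) and tandem-pore (KCNK) families. Other KCN genes encode subunits that make no pore by themselves: the small membrane proteins of the KCNE and KCNMB families, the cytosolic KCNAB and KCNIP proteins, and the KCNF, KCNG, KCNS and KCNV subunits, which join other pores. KCNE2 is a single-span KCNE subunit that changes the gating of the channels it joins, and its pairing with KCNQ1 is known from the acid-secreting cells of the stomach and from the thyroid. KCNN4 is the intermediate-conductance calcium-activated channel, known for setting membrane voltage in red blood cells, lymphocytes and epithelia. KCNAB2 is a cytosolic beta subunit that binds the KCNA channels.

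KCNE2 was singled out, and KCNAB2 and KCNN4 passed the test for a change in every processing alternative that was run. The sequence around the start sites of these 3 genes is therefore given, from 250 bases before to 50 bases after the RefSeq start, on the gene's strand, in build GRCh38.p14. The KCNE2 window is chr21:34363756-34364055 on the plus strand. The KCNAB2 window, at the farthest upstream of its listed starts, is chr1:5992426-5992725 on the plus strand. The KCNN4 window is chr19:43780924-43781223 on the minus strand. Capitals mark matches, on either strand, to TATAAA (the TATA box), to CCAAT (the CCAAT box), to GGGCGG (the GC box), to CACGTG (an E-box), to GTAAACA (a forkhead motif) and to TGANTCA (the AP-1 motif).
KCNE2: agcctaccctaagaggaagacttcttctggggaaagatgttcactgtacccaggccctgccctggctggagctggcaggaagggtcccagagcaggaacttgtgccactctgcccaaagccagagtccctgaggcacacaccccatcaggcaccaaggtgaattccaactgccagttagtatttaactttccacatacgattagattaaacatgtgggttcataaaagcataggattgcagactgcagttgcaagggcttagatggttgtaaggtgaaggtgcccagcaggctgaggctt
KCNAB2: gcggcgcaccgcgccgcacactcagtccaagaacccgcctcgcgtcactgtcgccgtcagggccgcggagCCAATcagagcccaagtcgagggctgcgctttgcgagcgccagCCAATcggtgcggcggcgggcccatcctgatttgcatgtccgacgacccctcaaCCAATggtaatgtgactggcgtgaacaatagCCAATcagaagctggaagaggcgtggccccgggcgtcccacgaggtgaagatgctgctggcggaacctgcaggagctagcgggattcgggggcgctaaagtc
KCNN4: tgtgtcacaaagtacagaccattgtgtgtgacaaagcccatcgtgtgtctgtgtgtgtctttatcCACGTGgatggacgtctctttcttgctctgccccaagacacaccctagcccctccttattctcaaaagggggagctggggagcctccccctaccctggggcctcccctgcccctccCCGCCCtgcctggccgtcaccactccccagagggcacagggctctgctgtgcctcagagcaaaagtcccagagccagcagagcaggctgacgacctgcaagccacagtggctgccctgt
The KCNE2 window held none of these motifs, and its GC content was 51.67%, against a median of 58.67% over 35116 promoter windows of the same table. The KCNAB2 window held 4 CCAAT matches, at positions -180, -137, -83 and -52 from the start, and CCAAT occurred in 34.61% of all windows. Its GC content was 65%. The windows at the other listed KCNAB2 starts held no CCAAT match, and the one at chr1:6034438-6034737 held CACGTG at -14. Which start the measured KCNAB2 record comes from was not tested. The KCNN4 window held the letters CACGTG once, found in 7.256% of all windows, and 1 reverse-strand match to GGGCGG, found in 44.95%. Its GC content was 60.67%. A promoter window was listed for 68 of the 86 genes.

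Most potassium channel genes gave a dim signal, by their mean over the 6 arrays. Over all records, the lower quartile of the mean intensity was 74.1, the median 281 and the upper quartile 1146, and these 3 bounds divide the records into the 4 brightness bins used here. Of the 86 genes, 52 lay in the dimmest bin, 25 in the second, 7 in the third and 2 in the brightest. That put 60.5% of them in the dimmest bin, against 23.9% of all named genes, and in 44 of them the means of both groups were below its bound. The table carries no background or detection value, so a dim gene cannot be called absent, and intensities of different genes are not set against each other because each record has its own probes. Array medians lay between 267 and 273 in the DCC-2036 group and between 265 and 274 in the control group. Correlations of log2 values were 0.964 to 0.978 between arrays of the same group and 0.929 to 0.937 across groups. The genes listed as high in this line, VIM, AXL, MET, EGFR, CD44, ANXA1, S100A4 and CAV1, all lay above the median of records. Of these, VIM, AXL, MET and CAV1 were lower with DCC-2036. Of 7 genes listed as low in this line, ESR1, PGR and CDH1 lay in the dimmest bin, EPCAM in the third, and ERBB2, KRT8 and KRT18 in the brightest. ERBB2 averaged 1814 in DCC-2036 arrays and 1811 in control arrays. KRT8 was higher with DCC-2036 (log2 change 1.24, limma adjusted p = 0.00385), and EPCAM was lower (-0.65, limma adjusted p = 0.0467). The part of these marker changes in the potassium channel results was not tested. Of 7 markers of other cells, PTPRC, CD3E, PECAM1, CDH5 and ALB lay in the dimmest bin, INS in the second and CD68 in the brightest.

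In limma's fit across all genes, with adjusted p-values from Benjamini-Hochberg over 17185 genes and a threshold of 0.05, 9 potassium channel genes were higher with DCC-2036, 3 were lower and 74 did not pass. With DCC-2036 replicate 2 left out, 5 were higher and 5 lower, and with control replicate 2 left out, 9 were higher and 1 was lower. The 12 genes were 14.0% of the family, where 29.1% of all named genes passed, 13.1% higher and 16% lower. Without KCNE2, the counts were 8 higher and 3 lower of 85 genes. Over all genes, the share that passed was higher in the brighter bins. In the dimmest bin, 5 of 52 potassium channel genes passed, against 7.73% of all genes there. In the second bin, 3 of 25 passed, against 23.3%, in the third 3 of 7, against 40.2%, and in the brightest 1 of 2, against 42.6%. The third-bin count includes KCNE2, which was chosen for its rise. KCNE2 and KCNAB2 lie in that bin through their DCC-2036 arrays, as their control means were 51.5 and 98.0. The 3 DCC-2036 arrays lay apart from the 3 control arrays, with no overlap, in 20 of the 86 genes, above them in 16 and below them in 4, against 46.5% of all genes. Without KCNE2, they lay apart in 19 of 85 genes, above in 15 and below in 4. The median log2 change was 0.09 for the potassium channel genes and 0.02 for all genes.

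**Figure D1:**
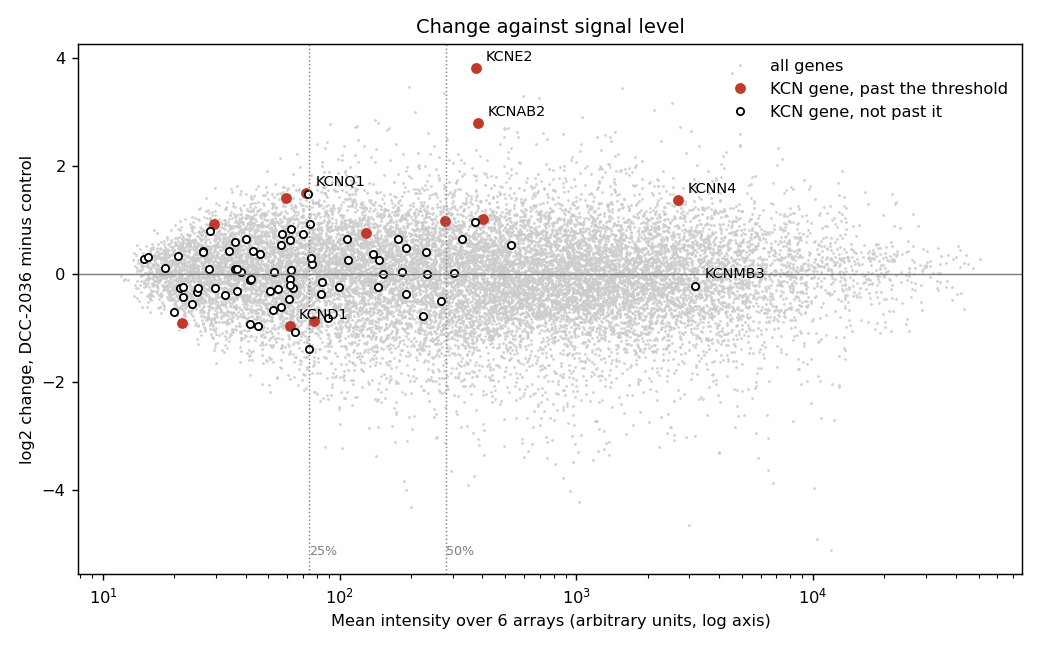
Log2 change (DCC-2036 minus control) on the y axis against the mean intensity over 6 arrays on a log x axis, with all 17185 genes in grey, potassium channel genes past the threshold in red and the others as open circles. Dotted lines stand at the lower quartile (74.1) and the median (281) of records, and 77 of the 86 potassium channel genes lie left of the median.

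KCNE2 was the gene of the series with the largest rise on the log2 scale. Its intensity was 687, 806 and 614 in DCC-2036 arrays, against 33.6, 76.0 and 44.97 in control arrays. All 3 treated arrays were above the median of records, while 2 of the control arrays were in the dimmest bin of the intensity scale and the third lay just above its bound. The mean was 702 ± 96.6 with DCC-2036 and 51.5 ± 21.9 in control (SD, n = 3 each), a log2 change of 3.82, or 14.1-fold. With 16 instead of 1 added before the log, the change was 3.45 and KCNE2 ranked number 2 among the rises. Whether more of the cells carried the transcript or each cell carried more of it cannot be told apart in bulk RNA.

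KCNE2 has 1 record on the array. The other KCNE subunits, which also attach to voltage-gated channels, did not pass the threshold. KCNE5 had 237, 287 and 130 in DCC-2036 arrays, against 181, 94.2 and 134 in control arrays, so the groups overlapped, with a log2 change of 0.65 ± 0.37 (SE). KCNE4 had 31.7, 55.4 and 45.6 in DCC-2036 arrays, against 87.1, 47.3 and 70.4 in control arrays, with a log2 change of -0.61 ± 0.30. KCNE3 had a change of 0.37. KCNE1, the KCNE subunit known from the slow delayed rectifier of the heart and encoded near KCNE2 on chromosome 21, averaged 307 ± 53.5 with DCC-2036 and 303 ± 72.9 in control. Its log2 change was 0.03, with a 95% interval of -0.54 to 0.59.

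The channels that KCNE2 is known to join, in cells or in heterologous expression, were looked at as a list of 9: KCNQ1 and KCNQ3, KCNH2, KCND2 and KCND3, KCNC1 and KCNC2, and the hyperpolarization-activated channels HCN2 and HCN4. Of these, 1 was higher with DCC-2036, 0 were lower and 8 did not pass, so 11.1% passed, against 29.1% of all genes. The median log2 change of the list was 0.55, and 5 of its 9 genes were in the dimmest bin. The groups did not overlap in 4 of the 9, against 46.5% of all genes.

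KCNQ1 was the partner that rose. It had 147, 89.1 and 87.4 in DCC-2036 arrays, against 30.5, 43.5 and 36.1 in control arrays. The lowest treated array was above the highest control array, and replicate 1 was the highest of the treated arrays. The mean was 108 ± 34.1 with DCC-2036 and 36.7 ± 6.53 in control, and the log2 change was 1.50 ± 0.26 (limma adjusted p = 0.00813, 2.83-fold). Its mean over all arrays lies in the dimmest bin, and with 16 added before the log the change was 1.21.

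KCND3, a pore subunit of the rapidly inactivating KCND channels, had 563, 787 and 546 in DCC-2036 arrays, against 382, 472 and 430 in control arrays. The groups did not overlap, but the log2 change of 0.55 did not pass (limma adjusted p = 0.0834, 95% interval 0.07 to 1.02). It passed with records below the median left out (limma adjusted p = 0.0232) and with limma's trend and robust settings (limma adjusted p = 0.0459). Another gene of the same family went the other way: KCND2 had 19.3, 12.6 and 13.4 in DCC-2036 arrays, against 21.4, 29.0 and 24.2 in control arrays, a log2 change of -0.70 (limma adjusted p = 0.0526). KCND2 lies in the dimmest bin, and with 16 added before the log its change was -0.40. It passed with median centring (limma adjusted p = 0.0493), array weights (limma adjusted p = 0.0414) and without DCC-2036 replicate 1 (limma adjusted p = 0.0279). HCN2, a pacemaker channel, had 263, 174 and 164 in DCC-2036 arrays, against 57.6, 88.6 and 157 in control arrays. The groups did not overlap, and the log2 change of 1.07 did not pass (limma adjusted p = 0.0868), while it did with control replicate 3 left out (1.44, limma adjusted p = 0.0305).

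A single array carried the change of 2 further partners. KCNH2, the heart's rapid delayed rectifier pore, had 34.3, 55.7 and 259 in DCC-2036 arrays, against 17.5, 47.3 and 25.4 in control arrays. Its log2 change of 1.49 ± 0.77 did not pass, and its other record changed by 0.32. KCNC2, a pore subunit of fast-spiking neurons, had 149, 63.1 and 105 in DCC-2036 arrays, against 69.6, 79.1 and 879 in control arrays. Its log2 change was -0.76 over all arrays and 0.42 without control replicate 3. HCN4 (0.58), KCNQ3 (0.33) and KCNC1 (0.11) had overlapping groups and did not pass, and HCN4 passed with control replicate 2 left out (1.11, limma adjusted p = 0.0426).

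**Figure D2:**
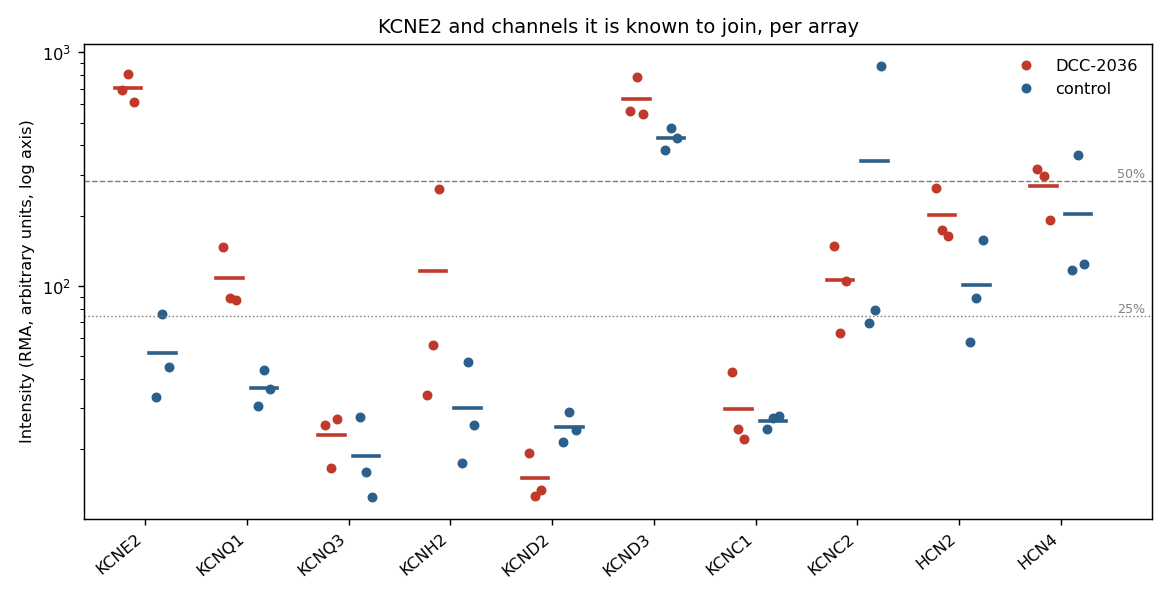
Intensity on each array (log y axis, arbitrary units) for KCNE2 and 9 channels it is known to join, with DCC-2036 arrays in red left of control arrays in blue, bars at the group means and horizontal lines at the lower quartile and the median of records. KCNE2 averaged 702 with DCC-2036 and 51.5 in control, KCNQ1 averaged 108 with DCC-2036 and 36.7 in control, and the single high arrays of KCNH2 (259, DCC-2036) and KCNC2 (879, control) stand apart.

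KCNAB2 showed the second largest rise of the family and ranked number 15 among all rises. It had 709, 632 and 671 in DCC-2036 arrays, against 66.7, 119 and 108 in control arrays. The treated arrays lay close together and far above the control arrays. The mean was 671 ± 38.3 with DCC-2036 and 98.0 ± 27.7 in control, and the log2 change was 2.80 ± 0.24 (limma adjusted p = 0.00118, 6.98-fold). None of the 7 measured KCNA genes, its pore partners, passed, and their log2 changes lay between -0.95 and 0.54. Of the 7, 6 lay in the dimmest bin, where 7.73% of all genes passed. KCNAB3, another beta subunit, averaged 401 ± 143 with DCC-2036 and 257 ± 84.8 in control, a log2 change of 0.65 with a 95% interval of -0.23 to 1.52.

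Among the other cytosolic proteins, KCNIP3 rose. KCNIP3, also called calsenilin or DREAM, is a calcium-binding protein that attaches to the KCND channels and is also known as a transcriptional repressor. It had 343, 413 and 347 in DCC-2036 arrays, against 157, 216 and 188 in control arrays, without overlap, and a log2 change of 0.98 ± 0.18 (limma adjusted p = 0.00953, 1.97-fold). KCNRG, a soluble protein known to hinder the assembly of KCNA channels, fell. It had 51.7, 68.9 and 44.9 in DCC-2036 arrays, against 116, 102 and 82.7 in control arrays, a log2 change of -0.86 ± 0.22 (limma adjusted p = 0.0297). Its other record changed by -0.41 and did not pass, and the call was lost when DCC-2036 replicate 1 or 3 or control replicate 1 or 2 was left out (limma adjusted p = 0.0752 to 0.0951). KCNRG overlaps TRIM13 in the RefSeq annotation, TRIM13 was lower as well (log2 change -1.64, limma adjusted p = 0.00408), and whether both records read the same transcript was not tested. KCND1, the only pore gene of the KCNA to KCND families that passed, fell too, and it is one of the channels KCNIP proteins attach to. It had 41.8, 46.7 and 35.7 in DCC-2036 arrays, against 75.1, 72.0 and 96.9 in control arrays, a log2 change of -0.95 ± 0.19 (limma adjusted p = 0.0122). The mean of KCND1 over all arrays lies in the dimmest bin, and with 16 added before the log the change was -0.76. With limma's trend and robust settings, KCND1 (limma adjusted p = 0.0676) and KCNRG (0.0937) did not pass.

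**Figure D3:**
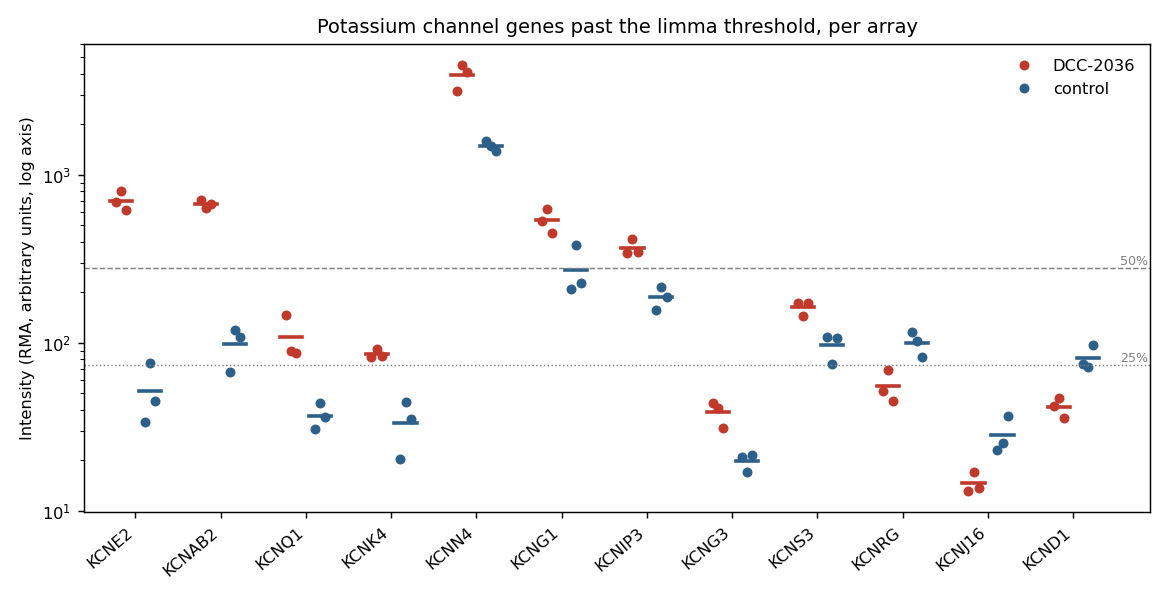
Intensity on each array (log y axis, arbitrary units) of KCNE2 and the 11 other potassium channel genes past the limma threshold, DCC-2036 arrays in red left of control arrays in blue, with bars at the group means and horizontal lines at the lower quartile and the median of records. The 9 higher genes run from KCNE2 (log2 change 3.82) to KCNS3 (0.76), and the 3 lower genes are KCNRG, KCNJ16 and KCND1.

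The calcium-activated channel KCNN4 rose and lay in the brightest bin in both groups. It had 3147, 4490 and 4077 in DCC-2036 arrays, against 1596, 1478 and 1387 in control arrays. The lowest treated array was well above the highest control array, and replicate 1 was the lowest of the treated arrays. The mean was 3905 ± 688 with DCC-2036 and 1487 ± 104 in control, and the log2 change was 1.38 ± 0.18 (limma adjusted p = 0.00357, 2.60-fold). The 6 genes of the calcium- and sodium-activated pores all had a positive log2 change, with a median of 0.64, but KCNN4 alone passed. In the dimmest bin lay 4 of the 6, and 29.1% of all genes passed. KCNN1, a small-conductance channel of the same family, had 91.9, 67.5 and 77.7 in DCC-2036 arrays, against 47.8, 30.8 and 56.1 in control arrays, with a log2 change of 0.83 (limma adjusted p = 0.0536). It passed with 16 added before the log (limma adjusted p = 0.0489) and without control replicate 3 (limma adjusted p = 0.0480). KCNN3 had a log2 change of 0.49 and overlapping groups.

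KCNMB3, a beta subunit of the large-conductance calcium-activated channel, was the other gene of the brightest bin and did not pass. It had 3473, 2954 and 2431 in DCC-2036 arrays, against 2938, 3631 and 3606 in control arrays, and the log2 change was -0.21 with a 95% interval of -0.66 to 0.25. A fall of more than 0.66 and a rise of more than 0.25 lie outside that interval. The other 3 records of KCNMB3 changed by 0.34, -0.68 and -0.43 and did not pass. KCNMB2 (-0.92, limma adjusted p = 0.109) and KCNMB4 (0.43, limma adjusted p = 0.272) were dim and did not pass either. Without DCC-2036 replicate 2, KCNMB2 passed (-1.32, limma adjusted p = 0.0186).

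The subunits that are silent by themselves held 3 of the rises, among 10 genes measured, where 13.1% of all genes rose. In the dimmest bin lay 8 of the 10, and 6 of the 10 had a positive log2 change. KCNG1, KCNG3 and KCNS3 are known to alter the KCNB channels they join. KCNG1 had 531, 630 and 448 in DCC-2036 arrays, against 208, 382 and 226 in control arrays, and a log2 change of 1.02 ± 0.27 (limma adjusted p = 0.0352). KCNG3 had 44.1, 41.1 and 31.2 in DCC-2036 arrays, against 21.0, 16.9 and 21.6 in control arrays, and a log2 change of 0.93 ± 0.19 (limma adjusted p = 0.0148). All 6 of its values lie in the range of the dimmest bin, and with 16 added before the log the change was 0.61. KCNS3 had 172, 144 and 171 in DCC-2036 arrays, against 108, 74.98 and 107 in control arrays, and a log2 change of 0.76 ± 0.20 (limma adjusted p = 0.0316). In each of the 3 genes the groups did not overlap. These calls were less firm than those of KCNAB2 and KCNN4. KCNS3 did not pass when any 1 of the 6 arrays was left out (limma adjusted p = 0.0544 to 0.0849), KCNG1 when any array other than control replicate 2 was left out (0.0541 to 0.106), and KCNG3 when DCC-2036 replicate 2 was left out (0.0510). KCNG3 (0.0618) and KCNS3 (0.0785) also missed the threshold with limma's trend and robust settings. KCNB2 had a log2 change of -0.09, with a 95% interval of -1.30 to 1.12 that covers 2-fold changes either way.

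Of the 8 KCNH genes, which form the EAG, ERG and ELK channels, 0 passed, against 29.1% of all genes. In the dimmest bin, where 7.73% of all genes passed, lay 5 of the 8. KCNH5 had 68.2, 95.2 and 52.3 in DCC-2036 arrays, against 45.5, 49.0 and 31.9 in control arrays, the only KCNH gene without overlap (log2 change 0.74, limma adjusted p = 0.0918). It passed when the records of each gene were averaged (limma adjusted p = 0.0246). KCNH1 had 25.6, 23.9 and 82.5 in DCC-2036 arrays, against 141, 60.8 and 110 in control arrays. Its log2 change of -1.38 was the most negative of the 86 genes and did not pass (limma adjusted p = 0.107), and it did without DCC-2036 replicate 3 (-1.95, limma adjusted p = 0.0234). KCNH7 had log2 changes of -1.06 and 0.64 in its 2 records, and neither passed. Among the KCNQ genes other than those named as partners, KCNQ5 averaged 229 ± 98.5 with DCC-2036 and 307 ± 27.7 in control, a log2 change of -0.50 (limma adjusted p = 0.264) that passed without DCC-2036 replicate 2 (-0.83, limma adjusted p = 0.0365).

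Among the 14 inward rectifiers, 0 rose and 1 fell, where 13.1% of all genes rose and 16% fell. In the dimmest bin lay 8 of the 14. The gene that fell was KCNJ16, a subunit that joins KCNJ10 in kidney and glia. It had 13.1, 16.9 and 13.7 in DCC-2036 arrays, against 23.1, 25.5 and 36.7 in control arrays, a log2 change of -0.90 ± 0.22 (limma adjusted p = 0.0251). All 6 values lie in the range of the dimmest bin. With 16 added before the log the change was -0.53, and the call was lost when DCC-2036 replicate 1 or 3 or control replicate 2 or 3 was left out (limma adjusted p = 0.0525 to 0.0699) and with limma's trend and robust settings (0.0648). KCNJ10 itself had a change of 0.05, with a 95% interval of -0.39 to 0.49. KCNJ9, a G-protein-gated rectifier, lay just outside the threshold. It had 494, 546 and 415 in DCC-2036 arrays, against 234, 367 and 172 in control arrays, without overlap, and a log2 change of 0.97 (limma adjusted p = 0.0514). It passed under 8 of 17 alternatives, among them a repeated quantile normalization and median centring.

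Among the 14 tandem-pore channels, of which 9 lay in the dimmest bin, KCNK4 alone passed, where 29.1% of all genes did. It rose. KCNK4, also called TRAAK, is a leak channel opened by membrane stretch and polyunsaturated fatty acids. It had 82.0, 92.1 and 82.9 in DCC-2036 arrays, against 20.2, 44.4 and 35.0 in control arrays, without overlap. The log2 change was 1.41 ± 0.29 (limma adjusted p = 0.0147, 2.65-fold), and the call was lost without DCC-2036 replicate 2 (limma adjusted p = 0.0509). The mean of KCNK4 over all arrays lies in the dimmest bin, and with 16 added before the log the change was 1.08. KCNK7 (0.65, limma adjusted p = 0.0770) and KCNK17 (0.74, limma adjusted p = 0.169) did not pass. With the dimmest 25% of records left out, KCNK7 passed (limma adjusted p = 0.0491). The other 11 tandem-pore genes did not pass either.

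**Figure D4:**
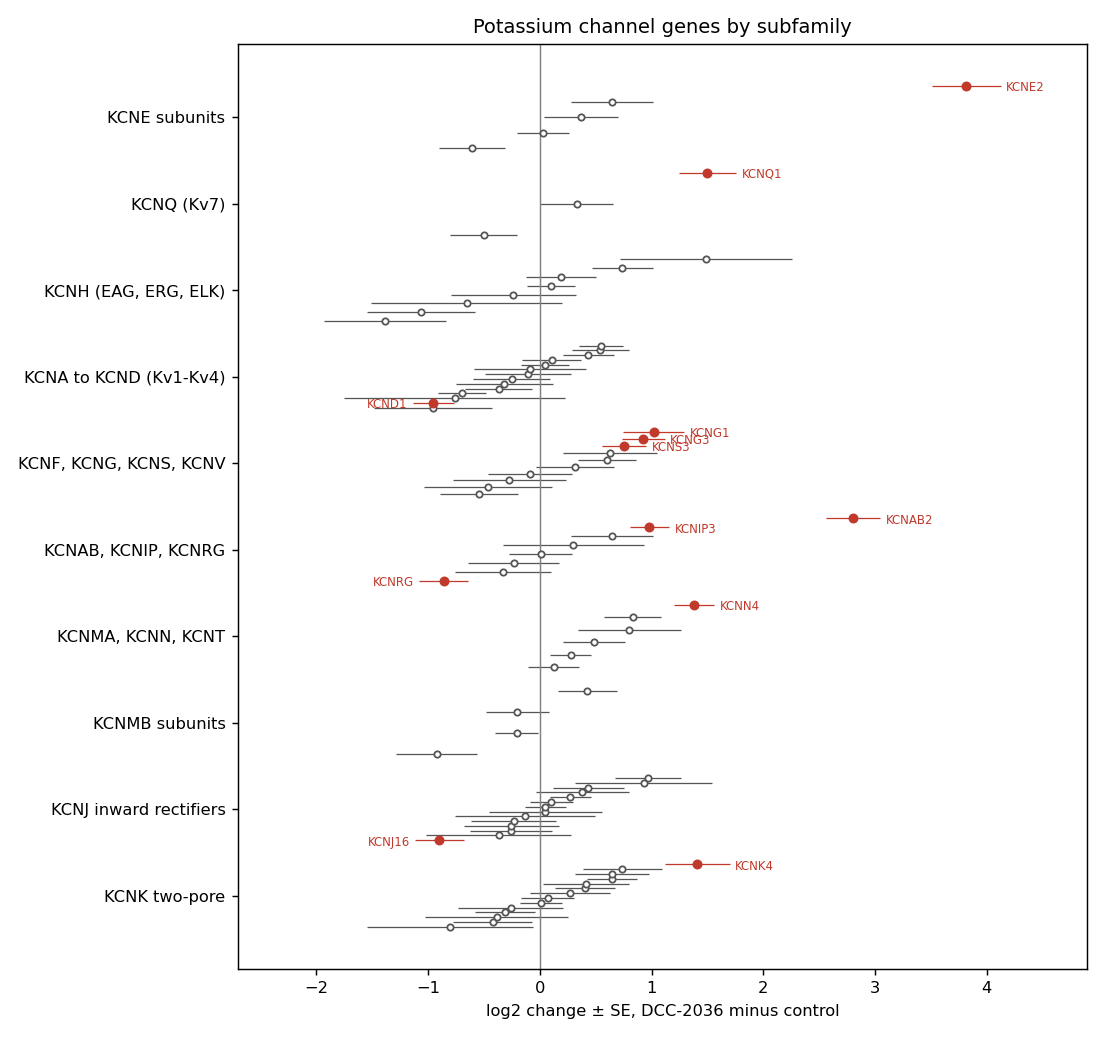
Log2 change with its SE (x axis, DCC-2036 minus control) for the 86 potassium channel genes, in rows by subfamily, with KCNE2 and the 11 genes past the limma threshold filled in red and named and the 74 others open. Of the 10 silent subunits, the 3 that passed, KCNG1, KCNG3 and KCNS3, lie between 0.76 and 1.02, and the others between -0.54 and 0.63. KCNE2 (3.82) and KCNAB2 (2.80) stand farthest to the right.

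For 14 of the 86 genes the array had several records, 32 in all, and in 6 of them the records had changes of both signs: KCNAB1, KCNC2, KCNC4, KCNH7, KCNIP1 and KCNMB3. Fitted over all 45033 records, where 26% passed, 13 of the 104 potassium channel records did. Of the 18 records that were not their gene's brightest, 1 passed, a record of KCNIP2 chosen for mention after its values were seen. It had 64.4, 55.2 and 99.9 in DCC-2036 arrays, against 22.3, 27.6 and 41.6 in control arrays, a log2 change of 1.23 (limma adjusted p = 0.0314 over all records). The brightest KCNIP2 record averaged 150 ± 21.2 with DCC-2036 and 154 ± 50.2 in control, a change of 0.01. KCNE2, KCNAB2, KCNN4 and KCNQ1 had 1 record each, so a second record could not be set beside theirs.

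**Figure D5:**
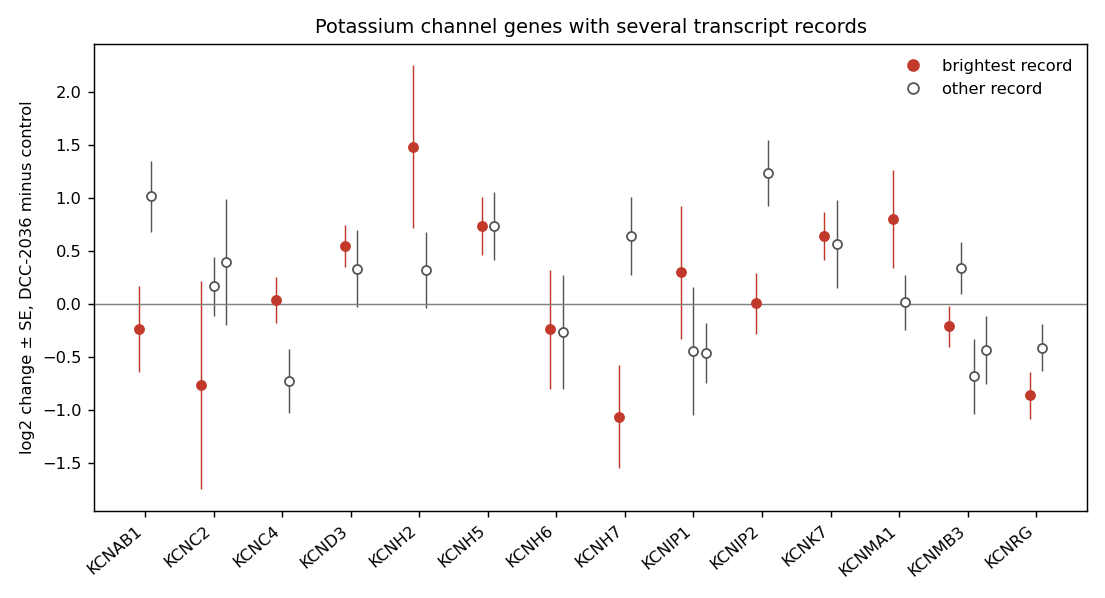
Log2 change with its SE (y axis, DCC-2036 minus control) of each record of the 14 potassium channel genes with several records, the brightest record filled in red and the others open. Records of KCNAB1 (-0.23 and 1.02) and KCNH7 (-1.06 and 0.64) lie on opposite sides of 0.

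The genes next to the 12 that passed or were singled out were looked at by their order in the RefSeq annotation, up to 2 measured genes on each side. Of 48 such neighbours, 10 were higher, 5 were lower and 33 did not pass, so 31.3% passed, against 29.1% of all genes. Beside KCNE2, SMIM11 was higher (log2 change 1.26 ± 0.34, limma adjusted p = 0.0352), while MRPS6 (0.14), SLC5A3 (-0.03) and KCNE1 (0.03) did not pass. Beside KCNQ1, which lies in an imprinted region, CDKN1C, a cyclin-dependent kinase inhibitor, averaged 181 with DCC-2036 and 50.6 in control (log2 change 1.81, limma adjusted p = 0.00158). TSSC4 (0.55) and SLC67A1 (0.75) were higher there too, and TRPM5 (0.39) did not pass. Beside KCNK4, BAD (0.97), GPR137 (0.91) and ESRRA (1.63) were higher and TRMT112 (0.25) did not pass. Beside KCNAB2 and KCNN4, none of the 8 neighbours passed. The part of neighbouring transcription in these results was not tested.

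Outside the KCN symbols, 39 genes of potassium transport were listed, and 38 were measured: HCN channels, accessory subunits, the sodium and hydrogen potassium pumps and the chloride cotransporters. Of these, 6 were higher with DCC-2036, 3 were lower and 29 did not pass, so 23.7% passed, against 29.1% of all genes. The median log2 change was 0.18. Several of the chloride cotransporters, which move potassium with chloride and set cell volume and chloride level, passed in opposite directions. SLC12A7 had 4351, 3714 and 3157 in DCC-2036 arrays, against 2390, 2469 and 2107 in control arrays (log2 change 0.68 ± 0.17, limma adjusted p = 0.0295). SLC12A4, which also carries potassium and chloride out of the cell, had 1107, 1314 and 1427 in DCC-2036 arrays, against 2091, 2140 and 2477 in control arrays (log2 change -0.81 ± 0.16, limma adjusted p = 0.0141). The inward cotransporter SLC12A2 had 55.9, 45.1 and 91.5 in DCC-2036 arrays, against 120, 128 and 108 in control arrays (log2 change -0.94, limma adjusted p = 0.0447).

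Among the subunits of the sodium pump, which carries potassium into the cell, ATP1B3 rose. It had 5333, 5135 and 6439 in DCC-2036 arrays, against 2487, 3828 and 3855 in control arrays (log2 change 0.75, limma adjusted p = 0.0470). ATP1B2 (0.66, limma adjusted p = 0.0276) and the regulator FXYD1 (1.23, limma adjusted p = 0.0276) were higher too, and the regulator FXYD6 (-0.87, limma adjusted p = 0.0257) was lower. The other record of FXYD1 changed by -0.22. TMEM38A, a potassium-selective channel of the endoplasmic reticulum, averaged 569 ± 51.4 with DCC-2036 and 324 ± 51.2 in control (log2 change 0.82, limma adjusted p = 0.0169). LRRC26, an accessory subunit of the large-conductance calcium-activated channel, averaged 177 ± 20.1 with DCC-2036 and 107 ± 25.3 in control (log2 change 0.73, limma adjusted p = 0.0416). Of the 9 genes, SLC12A4 alone passed with each single array left out. The number of higher genes, 6 over all arrays, was 2 with control replicate 1 left out, 3 with control replicate 2 or 3, 1 with DCC-2036 replicate 1, and 2 with DCC-2036 replicate 2 or 3. The number of lower genes was 1 instead of 3 with any control array or DCC-2036 replicate 2 left out.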

How the data were processed

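Total RNA from 6 cultures was measured on one-colour NimbleGen arrays, 3 per group. The authors made the deposited intensities with RMA (version unstated), per the submitters' processing notes. They are on a linear scale, 8.03 to 65365, and were used without further normalization. For background correction, probe number, scanner and slide, no details were given in the sources used here, and batches could not be tested. The platform table named 18188 records and RefSeq accessions named 678 more, for names only.

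From these values, log2(intensity + 1) was compared between groups in R 4.3.3 by limma 3.58.1, with lmFit, eBayes, a two-sided test and group as the single term. Benjamini-Hochberg adjustment covered all 17185 genes, with a threshold of 0.05. Tables were made with pandas 2.3.3 in Python 3.11.15. Standard errors and 95% intervals are those of the fit. An exact permutation test of 3 against 3 cannot give a two-sided p below 0.1 and was not used. The number of arrays limits the precision. The p-values set the difference between groups against the spread between the 3 cultures of each group, which eBayes draws toward that of all genes.

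Genes named in full are KCNE2 and its listed partners, every potassium channel gene past the threshold, those above the median of records, up to 3 genes with the smallest p per subfamily, and other potassium transport genes past the threshold. Others are given as ranges or counts, or, where a record or change was singled out, after their values were seen. The members, lists and tests were chosen with earlier results of these data known. A total of 17 alternatives were tried: normalization, number added, filters on dim records, variance model, choice of record, array weights, replicate block and each array left out. Some genes of these lists are not reported here. Records of near-identical gene copies cannot be told apart.

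Whether the replicate numbers pair the arrays is not known, and the main fit did not use them. Deviations from the group means correlated by -0.08, 0.04 and -0.09 between arrays of the same number. Between arrays of different numbers they correlated by -0.09 to 0.15. With 3 arrays a group, these values cannot show how the cultures were run.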

Additional observations from a re-analysis of the deposited data

How the results depend on the processing

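KCNAB2 and KCNN4 were past the threshold in all 17 alternatives. Each has 1 record, so the alternatives on the choice of record left their intensities unchanged. With records below the median left out, KCNAB2 was kept through its DCC-2036 arrays, as its control mean was 98.0. KCNQ1 was lost only where the dimmest 25% of records or those below the median were left out, since it was then not fitted. The 9 higher potassium channel genes became 6 to 11 under the 11 alternatives that kept every array, and 5 to 9 with an array left out, 5 of them without DCC-2036 replicate 2. The 3 lower genes became 1 with the dimmest 25% of records left out, 0 with records below the median left out, 0 with eBayes trend and robust settings, and 1 to 5 with an array left out, 1 of them without control replicate 2 and 5 without DCC-2036 replicate 2. The other potassium transport genes, 6 higher and 3 lower, became 1 to 3 higher and 1 to 3 lower with an array left out, 1 lower with records below the median left out, and 1 lower with trend and robust settings. With fewer arrays the whole table also gave fewer calls, 3142 to 4193 against 5002. FXYD1 turned to -0.22 when its second brightest record was used. Over 46 genes and these alternatives, 694 single-gene values were computed: 584 kept direction and side of the threshold, 78 lost the threshold, 22 gained it, 1 turned direction and 9 moved without being called. The trend and robust settings ended the calls of KCND1, KCNG3, KCNJ16, KCNRG and KCNS3 (limma adjusted p = 0.0618 to 0.0937), and the cause was not tested.

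With the replicate number as a replicate block, 9 potassium channel genes were higher, 8 of them among the 9 without it, and 1 was lower. The other potassium transport genes gave 2 higher and 2 lower, and the whole table gave 3169 calls. Whether arrays of the same number form pairs is not known, so these counts are given here alone.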
